A study of Ovis aries with 6 samples.

Results

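Heat shock proteins and their cochaperones fold new proteins, refold damaged ones and hand others on for degradation. The genes described here were chosen by symbol from the gene table of a study of sheep ovary: the HSP90, HSP70 and HSP110, HSP60 and HSP10 and small HSPB families, the J-domain families DNAJA, DNAJB and DNAJC, the BAG family, and the subunits of the cytosolic chaperonin TRiC. They number 68 genes of the 14480 in the table, of which 10189 carry a symbol. HSPA1A matched in 2 rows, and the row with the higher mean was kept, as the rule for members asks. The rule uses symbols and mean levels only, not the difference between breeds, but it was set with earlier results of these data known.

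The study compared ovaries of Hu sheep, a breed known for large litters, with ovaries of Mongolian sheep, which usually bear a single lamb. RNA was taken during estrus and sequenced as polyadenylated RNA, with 3 libraries from Hu sheep and 3 from Mongolian sheep (Ovis aries). The labels give no age, treatment or shared allele, and do not tell if each replicate was its own animal, so p-values measure only the spread between these libraries. The series title speaks of exosomes while each sample is labelled ovary.

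Values are FPKM, the fragments of a gene per kilobase of transcript and per library total. The depth behind the values is unknown. Stromal markers were abundant in each library, with 6 listed genes that summed to 667 to 864 FPKM in Hu and 640.2 to 750.2 FPKM in Mongolian, and the granulosa genes INHA and INHBA were listed above 0 in all libraries. Of 10 oocyte markers only GDF9 and ZP3 are listed by symbol, at 0.502 FPKM or less, and the other 8 were not analysed here. Rows above 0 numbered 6500, 7971 and 13342 in Hu 1, 2 and 3, against 10547, 11463 and 10606 in Mongolian 1, 2 and 3, so the Hu libraries stand apart from each other more than the Mongolian libraries do. Each result below is therefore given library by library, always in the order of replicates 1, 2 and 3.

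HSP70 proteins bind unfolded stretches in a cycle driven by ATP. J-domain proteins bring clients and trigger hydrolysis, while HSP110 and BAG proteins release the nucleotide. HSP90 receives clients from HSP70, and its best-known clients are the steroid hormone receptors, which makes it a partner of estrogen and progesterone signalling in the ovary. TRiC folds actin and tubulin inside a closed double ring, HSP60 works inside the mitochondrion, and small HSPB proteins hold damaged proteins without ATP. After heat, the transcription factor HSF1 raises a subset of these genes, HSPA1A, DNAJB1, HSPH1, HSPB1 and BAG3 among them.

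The 68 genes together made up between 0.829% and 1.06% of each library once the 2 most abundant rows of the table were set aside. Their summed FPKM was 878, 861 and 1910 in Hu, against 1097, 1063 and 1213 in Mongolian. Hu 3 alone stood high on this scale. The 2 most abundant rows, both assembled genes with no symbol, took 74.3%, 76.5% and 53.3% of the summed FPKM in Hu, against 75.1%, 74.2% and 79.7% in Mongolian. As a percentage of the remaining FPKM the 68 genes made up 0.967%, 0.829% and 0.908% in Hu, against 0.896%, 0.835% and 1.06% in Mongolian, and the breeds overlapped.

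**Figure D1:**
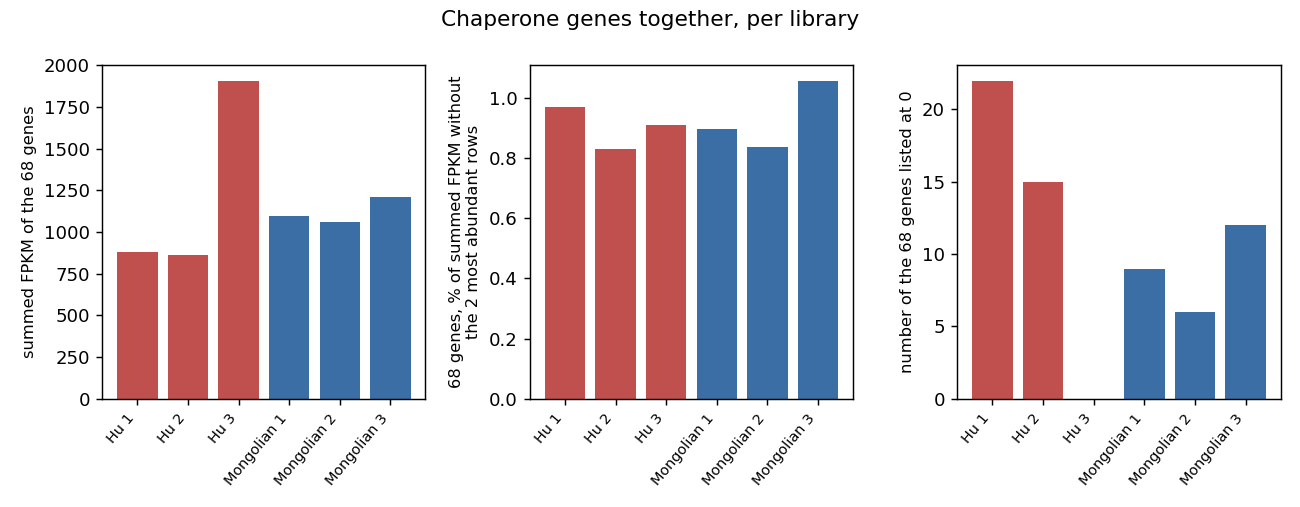
The 3 panels plot, for each library (red Hu, blue Mongolian), the summed FPKM of the 68 genes, the percentage of the FPKM that remains without the 2 most abundant rows, and the number of the 68 genes listed at 0. Hu 3 reached 1910 FPKM with 0 genes listed at 0, while its percentage of 0.908% lay among those of the other libraries.

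The number of members listed at 0 differed most within Hu. It was 22, 15 and 0 in Hu, against 9, 6 and 12 in Mongolian. A value of 0 is described here only as listed at 0, since it may be a transcript that was missed. In all, 39 of the 68 genes were listed above 0 in every library (57.4%), beside 5046 of the 14480 rows of the table (34.8%). Among the 58 members abundant enough to test (at least 0.5 FPKM in at least 3 libraries) these 39 made up 67.2%, beside 49.8% of all genes tested, and 36 had their highest value in Hu 3 (62.1%), beside 45% of all genes tested. The percentages listed at 0 were 25.9%, 13.8% and 0% of tested members in Hu and 6.9%, 1.72% and 3.45% in Mongolian, beside 39.04%, 25.9% and 0.702% of all genes tested in Hu and 7.04%, 3.72% and 8.43% in Mongolian.

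**Figure D2:**
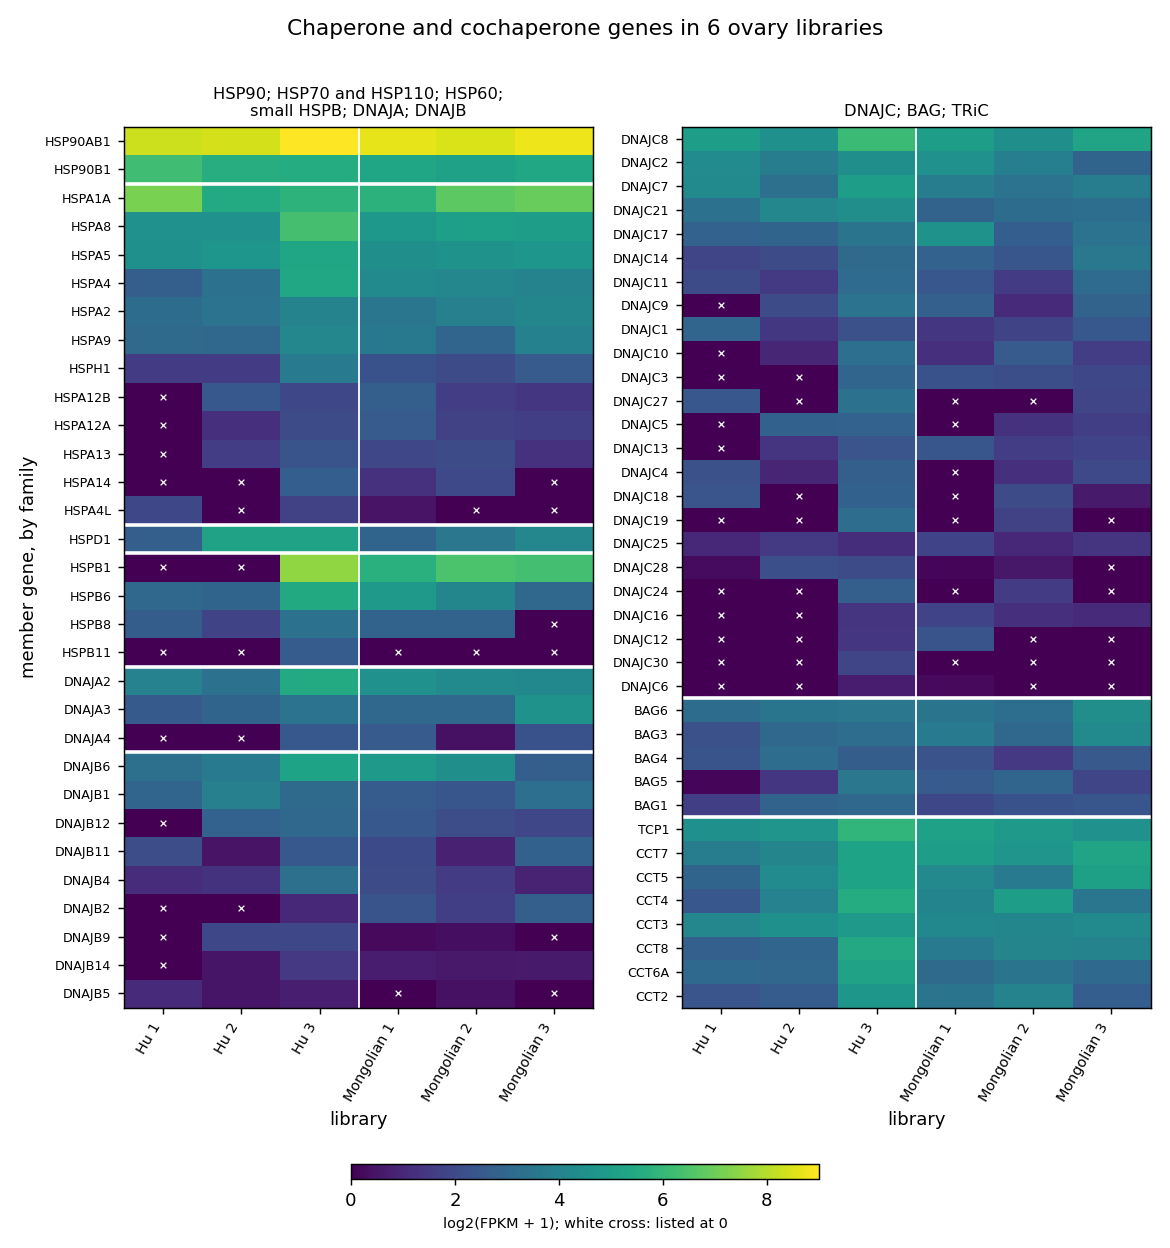
Each row is a member gene and each column a library, with Hu on the left; colour gives log2(FPKM + 1), white lines part the families, and white crosses mark values listed at 0. HSP90AB1 is the brightest row in all libraries, at 321 FPKM or more, and the crosses gather in Hu 1 (22 genes) and Hu 2 (15 genes).

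No member differed between breeds past the threshold. Of the 68 genes, 58 passed the filter and were tested with limma among all 9971 genes tested, as Hu minus Mongolian on log2(FPKM + 1) with Benjamini-Hochberg adjustment. The number with an adjusted p under 0.05 was 0, as for all genes (0%), and the lowest limma adjusted p of a member was 0.998. At an unadjusted p under 0.05 there were 0 members higher in Hu (all genes 0.913%) and 2 lower, HSPB1 and DNAJB2 (3.45% of members, all genes 2.82%).

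Among the 58 tested members 24 had a positive and 34 a negative log2 difference, so 41.4% were higher in Hu beside 32.3% of all genes tested. The median difference was -0.14 for members and -0.28 for all genes. The scaling between libraries moves these values: after quantile normalization the median of all genes was 0.019 and that of members 0.069, with 31 members higher. The split also moved with single Hu libraries. It turned to 39 members higher and 19 lower without Hu 1, and to 34 higher and 24 lower without Hu 2. Without Hu 3 it kept its direction, with 16 higher and 42 lower. The percentage of all genes tested that were higher in Hu moved as well, to 50.8% without Hu 1, 39.3% without Hu 2 and 18.1% without Hu 3. The median 95% confidence interval of a member's log2 difference reached 1.46 to either side, so a difference of less than about that size could not be told from 0 with these libraries.

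**Figure D3:**
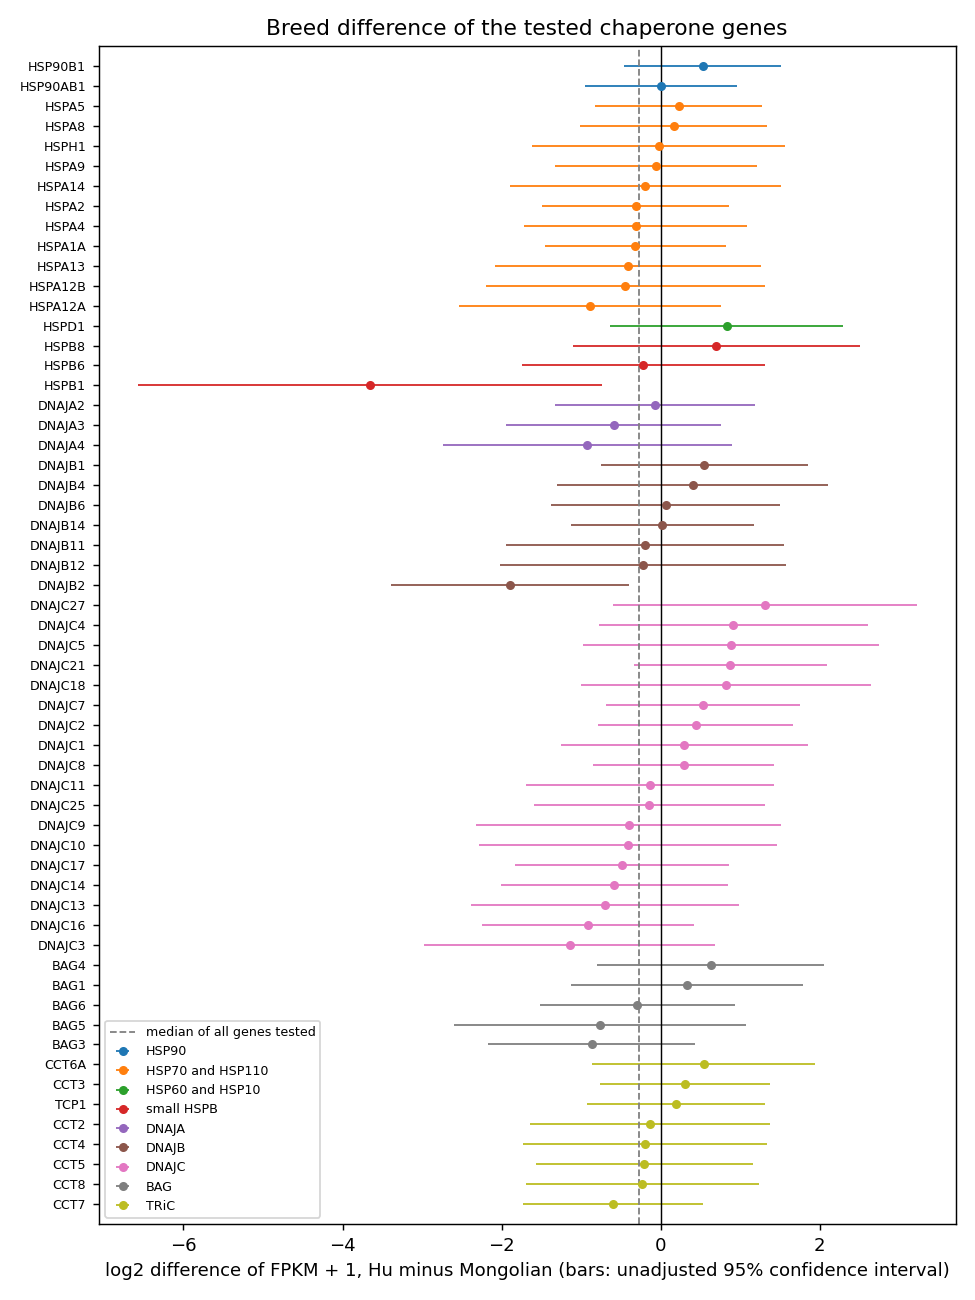
Points give the log2 difference of each tested member (Hu minus Mongolian, FPKM + 1) with its unadjusted 95% confidence interval, coloured by family; the dashed line marks the median of all genes tested, -0.28. Differences run from -3.66 (HSPB1) to 1.31 (DNAJC27), and the intervals of HSPB1 and DNAJB2 alone leave out 0.

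HSP90AB1, the constitutive cytosolic HSP90, was the most abundant member in every library. It stood at 321, 345 and 578 FPKM in Hu, against 406, 359 and 435 FPKM in Mongolian. On FPKM as deposited the breeds overlapped, with Hu 3 highest and Hu 1 lowest. The order depended on scaling. After median-of-ratios scaling HSP90AB1 stood at 482, 404 and 361 in Hu, against 377, 358 and 364 in Mongolian, with Hu 1 highest. With a common sum Hu 3 was lowest, at 353, and Hu 1 was at 454. HSP90AB1 took 36.6%, 40.1% and 30.3% of the members' summed FPKM in Hu, against 37.04%, 33.8% and 35.9% in Mongolian. Its means were 415 ± 142 FPKM in Hu and 400.1 ± 38.3 FPKM in Mongolian (SD, n = 3 each), and the log2 difference was 0.0046, with a 95% confidence interval from -0.95 to 0.96. Among the 39 members listed in every library HSP90AB1 varied least, with a coefficient of variation of 22.9% over the 6 libraries, ahead of CCT3 at 23.0% and HSPA5 at 23.6%. The median of those 39 was 54.0%, and that of all 5046 rows listed in every library was 53.7%.

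HSP90B1, the HSP90 of the endoplasmic reticulum, was one of the 2 tested members whose Hu values all lay above the Mongolian ones. It stood at 74.8, 48.3 and 47.0 FPKM in Hu, against 39.4, 34.2 and 41.2 FPKM in Mongolian. Hu 1 was highest, and the other Hu libraries lay just above the Mongolian range. The means were 56.7 ± 15.7 and 38.3 ± 3.65 FPKM in Hu and Mongolian (SD, n = 3 each). The log2 difference was 0.53 ± 0.46 (standard error; limma adjusted p = 0.998), and 0.31 without Hu 1. The separation depended on scaling: after median-of-ratios scaling Hu 3 lay below all Mongolian libraries, at 29.4 against 34.1 or more, while Hu 1 was at 112. Granulosa markers, of which 5 of 9 were listed, were likewise highest in Hu 1, with sums of 264, 54.0 and 143 FPKM in Hu, against 77.5, 61.4 and 94.5 FPKM in Mongolian. INHA, INHBA and SERPINE2 carried this sum, while FSHR and GATM were listed at 0 in Hu 1. The part of these cells in the result was not tested.

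HSPA5 (BiP), the HSP70 that works beside HSP90B1 in the endoplasmic reticulum, stood at 21.7, 25.2 and 37.7 FPKM in Hu, against 21.2, 23.3 and 25.7 FPKM in Mongolian. On FPKM as deposited the breeds overlapped, and the highest value was in Hu 3. Both depended on scaling. After median-of-ratios scaling HSPA5 stood at 32.5, 29.5 and 23.6 in Hu, against 19.7, 23.3 and 21.5 in Mongolian. It then lay without overlap and higher in Hu, beside 3.56% of all genes tested, with Hu 1 highest. After rescaling to a common sum the breeds overlapped. The ratio of HSP90B1 to HSPA5 within a library, which does not depend on scaling, was 3.45, 1.92 and 1.25 in Hu, against 1.86, 1.47 and 1.61 in Mongolian. Hu 1 and, narrowly, Hu 2 lay above the Mongolian range and Hu 3 below it. Of the 13 listed members assigned to the endoplasmic reticulum 12 were tested, 5 with a positive and 7 with a negative difference, and 0 were called. The J proteins of this compartment were scarcer: DNAJC3 (P58IPK), an inhibitor of the kinase PERK, stood at 0, 0 and 6.72 FPKM in Hu, against 3.80, 3.48 and 2.90 in Mongolian, and DNAJB11, a cofactor of BiP, at 3.33, 0.379 and 4.53 FPKM in Hu, against 3.02, 0.772 and 5.997 in Mongolian.

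HSPA1A, the classic heat-induced HSP70, was the most abundant HSP70 gene by mean. Its kept row stood at 144, 43.8 and 55.7 FPKM in Hu, against 54.5, 105 and 120.3 FPKM in Mongolian. The breeds overlapped widely, with Hu 1 highest and Hu 2 lowest of the 6. The log2 difference was -0.32 with a standard error of 0.54 (limma adjusted p = 0.998), and its sign turned without Hu 2 (0.019).

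The second row with the symbol HSPA1A stood at 161, 0.0625 and 43.3 FPKM in Hu, against 76.2, 96.9 and 86.6 FPKM in Mongolian. Mammals carry near-identical inducible HSP70 genes side by side, and how the authors' counting divided reads between such copies is not given in the sources used here, so the level of either row is uncertain. The second row divided by the first gave 1.12, 0.00143 and 0.777 in Hu, against 1.40, 0.919 and 0.720 in Mongolian. The ratio lay between 0.720 and 1.40 in 5 libraries, and in Hu 2 the second row was near 0. The sum of both rows was 305, 43.8 and 98.9 FPKM in Hu, against 131, 202 and 207 FPKM in Mongolian, and the breeds overlapped on this measure also.

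HSPA8, the constitutive HSC70, stood at 22.5, 22.3 and 79.8 FPKM in Hu, against 26.9, 33.0 and 32.3 FPKM in Mongolian. Hu 3 lay above and the other Hu libraries below the whole Mongolian range. HSPA4, an HSP110 that releases nucleotide from HSP70, likewise lay highest in Hu 3 and lowest in the other Hu libraries, with 5.60, 9.46 and 41.0 FPKM in Hu, against 18.2, 17.1 and 15.1 FPKM in Mongolian. HSPH1, the heat-induced HSP110, stood at 1.93, 2.01 and 11.7 FPKM in Hu, against 3.82, 3.14 and 4.92 in Mongolian. On FPKM as deposited, Hu 1 and Hu 2 were the lowest libraries and Hu 3 the highest in all 3 genes. For HSPA8 this order depended on scaling. After median-of-ratios scaling it stood at 33.8, 26.1 and 49.9 in Hu, against 25.0, 32.9 and 27.0 in Mongolian, with Mongolian 1 lowest. The log2 differences of the 3 genes, 0.16, -0.32 and -0.028, were within their standard errors of 0.56, 0.66 and 0.75.

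The other HSP70 genes were lower. HSPA2, known from spermatogenesis, stood at 7.97, 9.88 and 15.2 FPKM in Hu, against 10.6, 14.0 and 16.6 FPKM in Mongolian. HSPA9 (mortalin), which pulls proteins into the mitochondrion, stood at 7.71, 7.27 and 16.8 FPKM in Hu, against 11.5, 6.57 and 14.5 in Mongolian. HSPA12A, a distant relative, stood at 0, 1.34 and 3.31 FPKM in Hu, against 4.95, 2.45 and 2.15 in Mongolian. All of these overlapped between breeds. Of the 12 HSP70 and HSP110 genes 11 were tested, 2 with a positive and 9 with a negative difference (median -0.32), and 0 were called.

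HSPD1 (HSP60), the barrel of the mitochondrial chaperonin, stood at 5.60, 35.8 and 35.7 FPKM in Hu, against 6.53, 10.8 and 16.8 FPKM in Mongolian. Hu 2 and Hu 3 lay above and Hu 1 below every Mongolian library. The place of Hu 1 depended on scaling: it lay above Mongolian 1 after median-of-ratios scaling (8.41 against 6.06) and with a common sum (7.91 against 6.83). Means were 25.7 ± 17.4 and 11.4 ± 5.18 FPKM in Hu and Mongolian (SD, n = 3 each). The log2 difference was 0.83 ± 0.69 (standard error; limma adjusted p = 0.998). The difference was positive in each of the 19 alternative settings tried, and was 0.42 without Hu 2 or without Hu 3 and 1.66 without Hu 1. DNAJA3, the mitochondrial J protein that serves HSPA9, stood at 4.87, 6.45 and 9.89 FPKM in Hu, against 7.01, 7.31 and 23.6 FPKM in Mongolian, with its highest value in Mongolian 3. HSPE1, the lid of the HSP60 barrel, is not listed by symbol and was not analysed here.

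**Figure D4:**
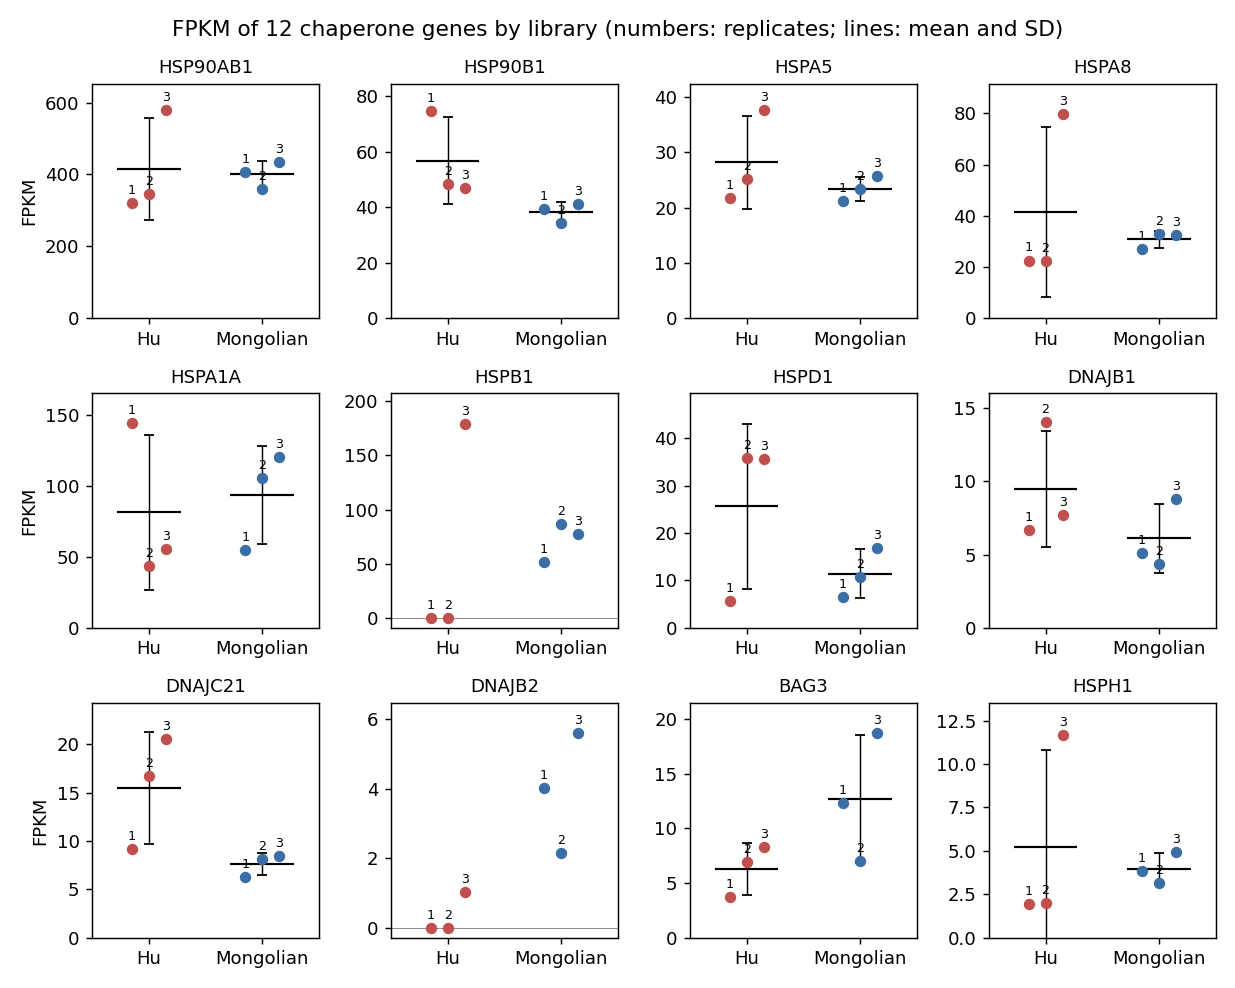
FPKM of 12 members in each library (red Hu, blue Mongolian; the number beside a point is its replicate); black lines give the mean and SD of 3 libraries, left out for HSPB1 and DNAJB2, which were listed at 0 in some. DNAJC21 and HSP90B1 show Hu points that all lie above the Mongolian points, DNAJB2 the opposite, and HSPB1 stands at 0 in Hu 1 and Hu 2 and at 179 FPKM in Hu 3.

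HSPB1 (HSP27), the most abundant small heat shock protein gene, had the most negative difference of any member. It was listed at 0, 0 and 179 FPKM in Hu, against 51.5, 86.6 and 77.9 FPKM in Mongolian. The Mongolian libraries lay close together, while Hu held both the lowest and the highest values. The limma log2 difference was -3.66 with a standard error of 1.37 (unadjusted p = 0.0173, adjusted p = 0.998), and the value was -5.86 with a pseudocount of 0.1 in place of 1. Single Hu libraries moved it as far, to -6.16 without Hu 3 and to -2.41 without Hu 1 or without Hu 2. HSPB1 passed the threshold without Hu 3, where both Hu libraries left were listed at 0 (limma adjusted p = 0.00484), and with limma array weights, which put a weight of 3.64 on Hu 2 and 0.25 on Hu 3 (difference -5.65, adjusted p = 0.00255).

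HSPB6 (HSP20), a small heat shock protein of muscle, stood at 7.14, 6.54 and 42.8 FPKM in Hu, against 28.1, 16.6 and 7.27 FPKM in Mongolian. HSPB8, which works with BAG3 in selective autophagy, stood at 5.27, 2.56 and 9.26 FPKM in Hu, against 6.30, 6.33 and 0 in Mongolian. HSPB11, a part of the transport train of cilia, was listed at 5.21 FPKM in Hu 3 and at 0 in the other 5 libraries. On FPKM as deposited all 4 genes of the family were thus highest in Hu 3, as were 45% of all genes tested. HSPB8 was instead highest in Hu 1 after median-of-ratios scaling, at 7.91 against 5.79 in Hu 3. Smooth muscle is rich in small HSPB proteins, and the 6 smooth muscle and pericyte markers summed to 551, 664 and 1397 FPKM in Hu, against 869, 686 and 828 FPKM in Mongolian. RGS5 alone of the 6 was listed at 0, in Hu 1, Hu 2 and Mongolian 3. Of the 6 markers 5 were highest in Hu 3, beside the same 45% of all genes tested. MYH11 went the other way, with all Hu values below the Mongolian ones. It stood at 105, 110 and 176 FPKM in Hu, against 224, 195 and 303 FPKM in Mongolian. The part of these cells in the result was not tested. In whole tissue, fewer cells of a type and less RNA per cell cannot be told apart.

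Among the type A and B J proteins, which carry HSP70 clients, DNAJA2 and DNAJB6 were the most abundant. DNAJA2 stood at 14.9, 9.34 and 44.03 FPKM in Hu, against 22.4, 19.0 and 17.4 FPKM in Mongolian. DNAJB6, which keeps aggregation-prone proteins soluble, stood at 8.94, 12.4 and 35.9 FPKM in Hu, against 28.3, 21.2 and 5.63 FPKM in Mongolian. On FPKM as deposited Hu 3 was highest for both. DNAJB6 was instead highest in Mongolian 1 after median-of-ratios scaling, at 26.3 against 22.4 in Hu 3. With a common sum Mongolian 1 was also highest, at 29.6 against 21.9 in Hu 3. DNAJB1, the main heat-induced J protein, followed another order, with 6.70, 14.0 and 7.72 FPKM in Hu, against 5.14, 4.37 and 8.79 FPKM in Mongolian. Its log2 difference of 0.55 was within its standard error of 0.61.

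DNAJB2, a J protein with ubiquitin-binding motifs, was the only tested member whose Hu values all lay below the Mongolian ones. It was listed at 0, 0 and 1.04 FPKM in Hu, against 4.02, 2.15 and 5.59 FPKM in Mongolian, and it stayed without overlap after both rescalings (median-of-ratios, and a common sum without the 2 most abundant rows). Its log2 difference was -1.89 with a standard error of 0.70 (limma unadjusted p = 0.0163, adjusted p = 0.998), and it was called with array weights alone (adjusted p = 0.0259). A count of 1 is 1.72% of the tested members, beside 6.05% of all genes tested that lay without overlap and lower in Hu. DNAJB4, another heat-induced J protein, stood at 1.22, 1.47 and 8.97 FPKM in Hu, against 3.18, 2.03 and 0.875 in Mongolian.

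The DNAJC genes are the largest and most varied group, 24 of the 68, each J domain being joined to a different cellular task. DNAJC8, associated with the spliceosome, was the most abundant, with 31.0, 21.8 and 68.7 FPKM in Hu, against 32.0, 21.3 and 36.8 FPKM in Mongolian. DNAJC2, which sits at the ribosome exit, stood at 19.4, 12.9 and 21.2 FPKM in Hu, against 22.2, 13.6 and 6.47 FPKM in Mongolian. DNAJC7, a bridge between HSP70 and HSP90, stood at 18.9, 9.02 and 30.8 FPKM in Hu, against 12.8, 9.80 and 13.1 in Mongolian. These abundant genes overlapped between breeds.

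DNAJC21, which acts in the maturation of the large ribosomal subunit, was higher in every Hu library than in any Mongolian library. It stood at 9.17, 16.7 and 20.6 FPKM in Hu, against 6.30, 8.14 and 8.43 FPKM in Mongolian. The gap between the breeds was narrow, from 8.43 in Mongolian 3 to 9.17 in Hu 1. Means were 15.5 ± 5.81 and 7.62 ± 1.16 FPKM in Hu and Mongolian (SD, n = 3 each). The log2 difference was 0.88 ± 0.57 (standard error; limma unadjusted p = 0.144, adjusted p = 0.998). DNAJC21 kept its lack of overlap after median-of-ratios scaling, with 13.8, 19.6 and 12.9 in Hu, against 5.84, 8.12 and 7.06 in Mongolian, and after rescaling to a common sum. With HSP90B1 it makes 2 of the 58 tested members without overlap and higher in Hu (3.45%), beside 1.88% of all genes tested. After median-of-ratios scaling CCT3, HSPA5 and DNAJC21 lay without overlap and higher in Hu, beside 3.56% of all genes tested, and CCT7 and DNAJB2 lower, beside 8.22%. After rescaling to a common sum DNAJC21 alone was higher, beside 2.13%, and CCT7, DNAJB2, DNAJC16 and HSPA12A were lower, beside 10.7%.

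The scarcer DNAJC genes were listed at 0 in several libraries. DNAJC27, a small GTPase with a J domain, stood at 4.42, 0 and 9.43 FPKM in Hu, against 0, 0 and 2.72 in Mongolian, and had the most positive difference of any member, 1.31 with a standard error of 0.90. It was 2.28 without Hu 2, 0.59 without Hu 3 and 0.093 with array weights. DNAJC5, the cysteine string protein of secretory vesicles, stood at 0, 6.02 and 6.06 FPKM in Hu, against 0, 1.5 and 2.19 in Mongolian. DNAJC18 stood at 4.13, 0 and 5.91 FPKM in Hu, against 0, 3.15 and 0.553 in Mongolian. All of these sets of values overlapped. DNAJC4 stood at 3.73, 0.966 and 5.54 FPKM in Hu, against 0, 1.32 and 2.93 in Mongolian, and DNAJC16 at 0, 0 and 1.60 FPKM in Hu, against 2.49, 1.39 and 1.11 in Mongolian. DNAJA4, of the type A group, likewise stood at 0, 0 and 4.54 FPKM in Hu, against 4.92, 0.323 and 3.80 in Mongolian. Over the 18 DNAJC genes tested, 9 had a positive and 9 a negative difference.

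The 10 members that did not pass the filter were DNAJB5, DNAJB9, HSPA4L, HSPB11 and 6 DNAJC genes, and none of them exceeded 8.24 FPKM in any library. DNAJC30 was listed at 2.67 FPKM in Hu 3 and at 0 in the other 5 libraries, as HSPB11 was. DNAJC19, part of the motor that imports mitochondrial proteins, reached 8.24 FPKM in Hu 3 and 2.31 FPKM in Mongolian 2 and was listed at 0 elsewhere. DNAJC24, of the diphthamide pathway, was listed in the same libraries, at 5.57 and 1.96 FPKM. DNAJB9, an induced J protein of the endoplasmic reticulum, stood at 0, 2.84 and 2.83 FPKM in Hu, against 0.182, 0.248 and 0 in Mongolian. DNAJB5 stood at 1.16, 0.414 and 0.692 FPKM in Hu, against 0, 0.329 and 0 in Mongolian, without overlap but at levels too low for the filter.

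BAG proteins release nucleotide from HSP70 and steer its clients. BAG6, which guards tail-anchored membrane proteins, was the most abundant, with 8.10, 10.4 and 10.8 FPKM in Hu, against 9.90, 8.45 and 20.9 FPKM in Mongolian. BAG3, the heat-induced partner of HSPB8, stood at 3.68, 6.94 and 8.29 FPKM in Hu, against 12.3, 7.04 and 18.7 FPKM in Mongolian. On this scale Hu 1 and Hu 2 lay below all Mongolian libraries, and Hu 3 lay above Mongolian 2 alone. The order depended on scaling: after median-of-ratios scaling BAG3 stood at 5.53, 8.12 and 5.18 in Hu, against 11.4, 7.02 and 15.7 in Mongolian. Hu 2 then lay above Mongolian 2, and Hu 3 was lowest. The log2 difference of BAG3 was -0.87 with a standard error of 0.61 (limma adjusted p = 0.998), and ran from -1.21 without Mongolian 2 to -0.56 without Mongolian 3. BAG4, a silencer of death receptors, stood at 4.03, 8.21 and 5.28 FPKM in Hu, against 3.94, 1.81 and 4.71 in Mongolian. BAG5 had the largest ratio of highest to lowest value among the members listed in every library (116), with 0.0934, 1.67 and 10.8 FPKM in Hu, against 4.99, 6.74 and 2.65 in Mongolian.

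All 8 subunits of TRiC, which stand in equal numbers in the assembled ring, were listed in every library. The median subunit stood at 6.98, 15.6 and 36.3 FPKM in Hu, against 16.4, 16.4 and 17.1 FPKM in Mongolian. The Mongolian medians were nearly alike, while the Hu medians spread to both sides of them. The median of all genes tested spread likewise, with 1.04, 2.22 and 5.06 FPKM in Hu, against 3.34, 3.11 and 3.88 FPKM in Mongolian. TCP1, the most abundant subunit by mean, stood at 22.02, 25.1 and 60.4 FPKM in Hu, against 34.8, 28.2 and 22.6 FPKM in Mongolian. CCT7 stood at 13.2, 16.2 and 36.4 FPKM in Hu, against 31.03, 25.1 and 36.8 FPKM in Mongolian. On FPKM as deposited CCT7 was the single subunit not highest in Hu 3, and Hu 3 lay above every Mongolian library in 7 of the 8. Of all genes tested 45% were highest in Hu 3 on that scale. These counts were not repeated after rescaling. All Hu values of CCT7 lay below the Mongolian ones after median-of-ratios scaling, beside 8.22% of all genes tested. The same held after rescaling to a common sum, beside 10.7%.

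**Figure D5:**
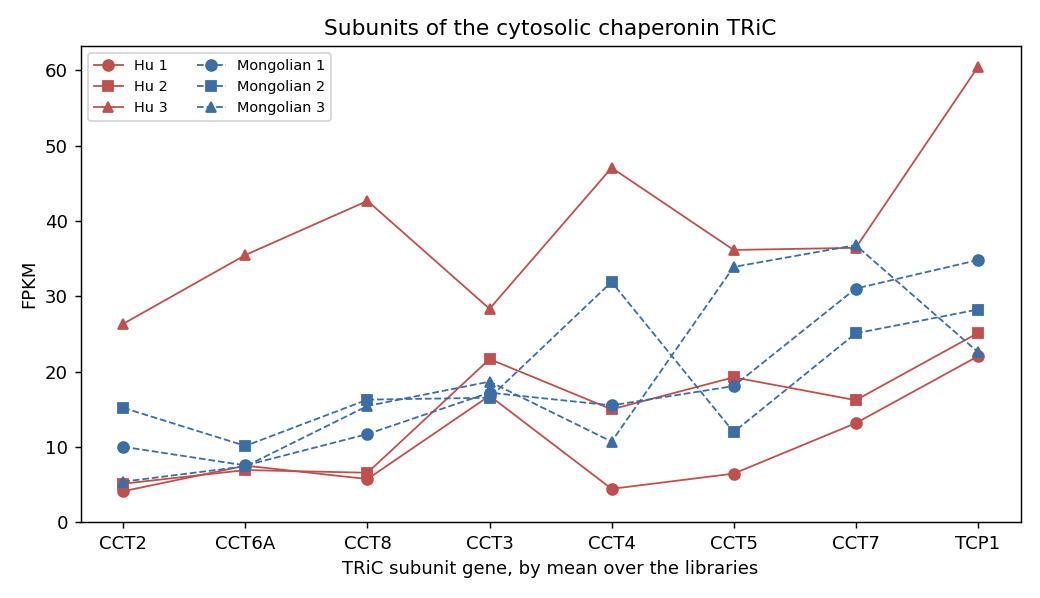
FPKM of the 8 TRiC subunit genes, ordered by mean, in each library (red solid lines Hu, blue dashed lines Mongolian, marker by replicate). Hu 3 runs above the other libraries except at CCT7, and the median subunit stood at 36.3 FPKM there and at 6.98 FPKM in Hu 1.

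Subunit levels were unequal within every library. The highest subunit exceeded the lowest 5.35, 4.91 and 2.29 times in Hu, against 4.62, 3.15 and 6.83 times in Mongolian, and the coefficient of variation over subunits was 65.6%, 52.1% and 27.97% in Hu, against 53.7%, 41.0% and 61.8% in Mongolian. Hu 3, the library with the most rows listed, had the most even subunits. As a percentage of the FPKM without the 2 most abundant rows, TRiC made up 0.0884%, 0.112% and 0.149% in Hu, against 0.119%, 0.122% and 0.131% in Mongolian, with Hu 1 lowest and Hu 3 highest, as for the summed TRiC FPKM. None of the 8 differences was called (3 positive and 5 negative, from -0.60 for CCT7 to 0.54 for CCT6A).

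The heat-inducible genes did not share a direction. Of 14 genes in that list 9 were listed, 5 with a positive and 4 with a negative difference (median 0.16), and 0 were called. The list includes HSPA8, described above as constitutive, whose difference of 0.16 is this median. The summed FPKM of the 9 genes was 191, 129 and 396 in Hu, against 170, 259 and 281 in Mongolian. Of the 9 genes 5 were highest in Hu 3 (HSPB1, HSPA8, HSPH1, HSPB8 and DNAJB4), while HSPA1A was highest in Hu 1, DNAJB1 and HSPD1 in Hu 2, and BAG3 in Mongolian 3. Immediate early genes, which respond to tissue handling, summed over 8 listed genes to 70.04, 67.6 and 379 FPKM in Hu, against 129, 98.8 and 207 FPKM in Mongolian, and this sum was highest in Hu 3. By gene, FOS, JUN, EGR1 and ATF3 were highest in Hu 3 (4 of 8), FOSB and IER3 in Hu 1, and DUSP1 and MYC in Mongolian 3. Of these 8 genes 1, 2 and 0 were listed at 0 in Hu, against 2, 1 and 0 in Mongolian, and their part in the result was not tested. HSP90AA1, HSPA1B, HSPA6, HSPE1 and DNAJA1 are not listed by symbol and were not analysed here.

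Other folding genes outside the symbol rule were examined from a list of 47 cochaperones, prefoldin subunits, lectin chaperones and mitochondrial proteases. Of these 43 were listed and 42 tested, 14 with a positive and 28 with a negative difference (median -0.21), and 0 were called. CDC37, which brings kinases to HSP90, stood at 70.4, 43.3 and 84.4 FPKM in Hu, against 52.3, 55.8 and 78.2 FPKM in Mongolian. CALR, the calcium-binding lectin chaperone of the endoplasmic reticulum, stood at 121, 99.6 and 161 FPKM in Hu, against 79.6, 90.0 and 93.6 FPKM in Mongolian. PDIA3, a disulfide isomerase that works with CALR, stood at 32.6, 33.5 and 48.9 FPKM in Hu, against 30.9, 22.9 and 23.6 FPKM in Mongolian. All Hu values of CALR and of PDIA3 lay above the Mongolian ones, which makes 2 of the 42 genes tested (4.76%), beside 1.88% of all genes tested. The separation of these 2 genes was examined on FPKM as deposited only, and not after rescaling. Their log2 differences of 0.51 and 0.54 had standard errors of 0.44 and 0.48 (limma adjusted p = 0.998 for both). Other folding genes of the same compartment went either way. Differences were -0.069 for CANX, -0.040 for PDIA4, -0.28 for PDIA6, -0.29 for HYOU1 and -0.53 for SIL1, all with overlap between breeds. They were 0.53 for HSP90B1, 0.22 for HSPA5 and 0.36 for SEC63, and of these HSP90B1 alone lay without overlap on FPKM as deposited. HSF1, the master heat shock factor, stood at 4.02, 6.88 and 5.26 FPKM in Hu, against 11.4, 4.81 and 4.31 FPKM in Mongolian, and overlapped. HSPBP1, a nucleotide exchange factor of HSP70, was listed at 0, 0 and 0.433 FPKM in Hu, against 0.876, 1.37 and 3.39 FPKM in Mongolian. HSPBP1 was thus without overlap and lower in Hu, as 1 of the 42 genes tested (2.38%), beside 6.05% of all genes tested. It alone of these genes had an unadjusted p under 0.05 (limma unadjusted p = 0.0443, adjusted p = 0.998).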

How the data were processed

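The authors deposited FPKM values per gene, 1 column per library, and the FPKM values were used as deposited. Columns were matched to samples by the codes in the sample descriptions, and groups come from the titles. For the aligner, counting tool, genome build and filters nothing is given in the sources used here. Per the labels' protocols, RNA was extracted with an RNeasy kit and libraries were made with a SMARTer kit, which amplifies by PCR. No sequence or coordinate is printed. A second deposited table, of lncRNAs, was not used.

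Low values were searched for steps of whole reads. Ratios between any 2 libraries, over rows above 0 and under 2 FPKM, did not pile up: the fullest bin (0.2% wide) held 0.566% of rows or fewer. Depth is thus unknown and no count test was run. Where a row listed at 0 enters a log2 difference, the size depends on the pseudocount.

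limma 3.58.1 in R 4.3.3 (lmFit, eBayes with a trend, two-sided, breed as the only factor) was fitted to log2(FPKM + 1) of the 9971 genes that reached 0.5 FPKM in 3 or more libraries, with Benjamini-Hochberg adjustment over all of them; it was tested on simulated data. Differences are Hu minus Mongolian, and log2(FPKM + 1) understates those of low genes. Named genes are the most abundant of each family, the heat-inducible list, the 8 tested members with the smallest unadjusted p in each direction and the 10 most abundant members; other members and all other folding genes named were picked with their values in view. The members and lists were chosen with earlier results of these data known. No set test was run. Alternatives were 2 other pseudocounts, other filters, 3 scalings, a replicate block, array weights, a covariate for how many rows each library lists, eBayes without a trend and leaving out each library.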

Additional observations from a re-analysis of the deposited data

How the results depend on the processing

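Under 15 of 19 alternative settings 0 genes were called, and under 16 of 19 no member was. Array weights called 633 genes and 3 members (HSPB1, DNAJB2 and DNAJC3), and leaving out Hu 1 and Hu 3 together, chosen after seeing the data, called 6 genes and 1 member (HSPB1); that fit sets 1 Hu library, Hu 2, against 3 Mongolian libraries, and assumes that it varies as they do. Leaving out 1 library gave 0 to 4 genes and 0 to 1 members called, with 4 genes and 1 member (HSPB1) without Hu 3 and 2 genes without Hu 2. The median of members minus that of all genes was 0.14, moved to 0.56 with a pseudocount of 0.01, and was positive in all 19 settings, with 0.048 over rows above 0 in all 6 libraries, 0.051 after quantile normalization, 0.28 without Hu 1, 0.34 without Hu 2 and 0.087 without Hu 3. With the replicate number as a block 0 genes and 0 members were called. Deviations of same-numbered libraries correlated at -0.013, -0.030 and -0.180 over genes. Those of differently numbered libraries correlated at -0.111 to 0.159. Deviations within 3 libraries sum to 0, so these correlations cannot decide if the numbers pair the samples. Of the 29 named genes, 15 kept their sign in every setting where they could be tested. With array weights the log2 differences turned to -0.28 for DNAJB4, -0.56 for DNAJB6, -0.46 for DNAJC18, -0.23 for DNAJC8, -0.16 for HSP90AB1, -0.30 for HSPA8, -0.36 for HSPB8 and -0.19 for TCP1. With Hu 2 as the only Hu library they stood at -0.22 for DNAJB4, -0.28 for DNAJB6, -0.90 for DNAJC18, -0.63 for DNAJC27, -0.087 for DNAJC4, -0.41 for DNAJC8, -0.21 for HSP90AB1, -0.44 for HSPA8, -0.082 for HSPB8 and -0.16 for TCP1. Scaling turned HSP90AB1 (-0.19 after quantile normalization, -0.044 with a common sum), DNAJA2 (0.076 after median-of-ratios) and HSPH1 (0.057 after median-of-ratios, 0.28 after quantile normalization). A covariate for how many rows each library lists turned DNAJA2 (0.34) and HSPH1 (0.48). Leaving out 1 library turned 11 named genes, whose differences ran from -0.53 to 0.075 for BAG6, from -0.68 to 0.38 for DNAJA2, from -0.30 to 0.79 for DNAJB4, from -0.59 to 0.49 for DNAJB6, from -0.17 to 0.64 for DNAJC8, from -0.26 to 0.16 for HSP90AB1, from -0.83 to 0.019 for HSPA1A, from -0.43 to 0.46 for HSPA8, from -0.26 to 1.18 for HSPB8, from -0.73 to 0.33 for HSPH1 and from -0.25 to 0.46 for TCP1. The cause of these turns was not tested. With 3 libraries a breed and unknown depth, only large differences could pass.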
